A study of Macaca mulatta with 32 samples.

Results

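The circRNAs described here are the short intronic circRNAs of the rhesus macaque brain, the rows of the deposited table that the authors annotated as intron and whose joined ends lay less than 1000 bases apart. They numbered 1240 of 52828 circRNAs in the table (2.35%), came from 1056 host genes and held 166925 of 7159279 back-splice reads (2.33%). The 32 libraries covered 8 regions with 4 libraries each, namely the prefrontal (PFC), posterior cingulate (PCC), temporal (TC), parietal (PC) and occipital cortex (OC), the CA1 field of the hippocampus (CA1), the dentate gyrus (DG) and the cerebellar cortex (CB). The 4 libraries of a region came from 4 pools, named by age in years and sex as 10F, 10M, 20F and 20M. Each pool mixed the RNA of 2 animals, 8 animals in all. Every pool was sampled in all 8 regions, so that 16 libraries of 10 years against 16 of 20 years rested on 4 pools, and p-values measure the spread between libraries only. In every library polyadenylated RNA was captured away, ribosomal RNA was depleted and linear RNA was digested with RNase R, an enzyme that degrades RNA from a free 3′ end. The values are called TPM in the deposited table, while the methods name DESeq for the normalisation, and their sums ranged from 107695 (DG_20F) to 352188 (CB_10F) over the libraries. A TPM level set between regions therefore also carries this difference in scale. Every value of a library was a multiple of 1 read's worth, so back-splice reads could be recovered from it, and no listed value was under 2 reads. Libraries held from 18813 (CB_10F) to 894932 (PCC_20F) back-splice reads. In CB_10F a single read was worth 18.7 TPM, so the leading members in CB are also given as reads per 10000 back-splice reads of the library.

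A circRNA forms when the spliceosome joins the downstream end of a stretch of RNA to its upstream end, and such back-splicing most often uses the ends of annotated exons. A circle can also arise within an intron, from an intron lariat that escapes debranching, from a retained intron or from an exon that the annotation lacks. Circular RNAs have no free ends, resist exonucleases and accumulate in neurons, which divide little. The annotation column gives only the type intron and does not tell these origins apart.

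The study lists divergent primers for several short intronic circRNAs, which point away from each other on linear RNA and give a product only across the joined ends. The pairs of MCF2 and GLT1D1 are shown because MCF2 was the one member called higher in OC by limma, and GLT1D1 was found in every region but DG. The MCF2 circRNA lies at X:137768657-137769056 on the minus strand and the GLT1D1 circRNA at 11:130202158-130202959 on the plus strand, as the table gives positions. The sequences run 5′ to 3′ and are set in lower case throughout.
MCF2 forward primer: agcaactatttctaccctactt
MCF2 reverse primer: ccattcctcaggttcttcaga
GLT1D1 forward primer: caagaatggcatcaggaggag
GLT1D1 reverse primer: tgtcgaagtccacatatcagaa

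Most short intronic circRNAs were rare and a few were abundant. The median member had 10 back-splice reads over all libraries (quartiles 5 and 26), 635 (51.2%) had 2 to 10 reads and 882 (71.1%) were found in a single library. At the other end, 93 members had at least 100 reads, and the 16 with at least 1000 reads held 76.8% of all member reads. The leading pair, both from YAF2, held 46.7%. No member was found in all 32 libraries, 6 were found in 31 and 36 in at least 16. The filter of the study's methods kept 274 members (22.1%), against 32.3% of all circRNAs, 24.03% of the 5648 intronic circRNAs of 1 kb or more and 35.5% of the 5608 exonic circRNAs under 1 kb. All but 1 of the 274 were kept for having at least 30 reads in total, or had that many beside another criterion, and 61 of them were found in a single library. In single-library circRNAs the short intronic class (71.1%) was above the long intronic (65.5%) and the short exonic class (51.4%).

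The joined ends lay 138 bases apart in the shortest member, of RRP7A (9 reads), and 999 in the longest, of RNF217 (14 reads), with a median of 420 bases (quartiles 268 and 662). The filter kept 9.72% of the 144 members of 100 to 199 bases, 26.3% of the 152 of 400 to 499 bases and 22.9% of the 214 of 750 to 999 bases. The plus strand held 600 members and the minus strand 640, and 29 lay on chromosome X.

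**Figure D1:**
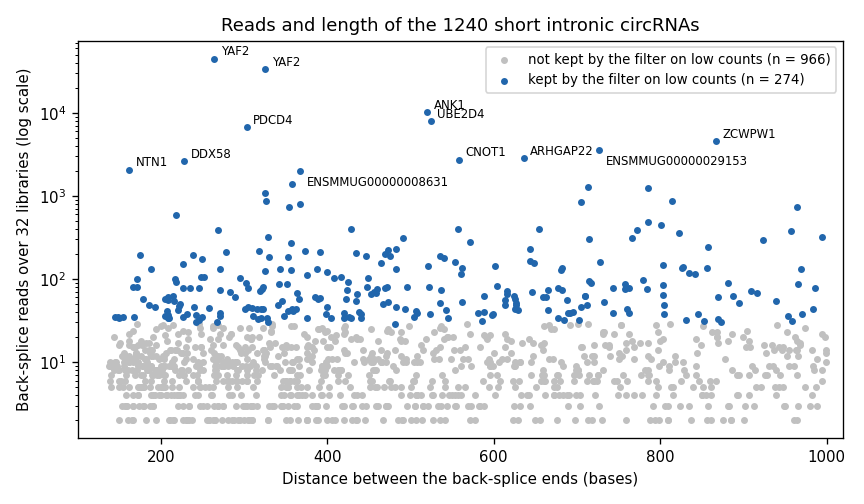
Distance between the joined ends in bases (horizontal) and back-splice reads summed over the 32 libraries (vertical, log axis) of the 1240 short intronic circRNAs, 1 point each, coloured by whether the filter kept it, with the 12 most abundant named. Most points lie near the median of 10 reads at every distance, and the YAF2 pair of 264 and 325 bases stands above all others.

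The 12 most abundant members came from 11 host genes. YAF2, which encodes a partner of the transcription factor YY1, gave the first and second (11:39133774-39134038 and 11:39133774-39134099, both on the minus strand), with 44783 and 33204 reads. ANK1, an ankyrin that ties membrane proteins to the spectrin skeleton, came next with 10265 reads (8:42216486-42217006, minus strand). It was followed by UBE2D4, a ubiquitin-conjugating enzyme, with 7871 reads (3:82313532-82314056, minus strand). PDCD4, an inhibitor of translation initiation, had 6660 reads (9:110578619-110578922, plus strand), and ZCWPW1, a reader of histone marks, had 4597 (3:47575551-47576418, minus strand). ENSMMUG00000029153, a gene known here by its identifier only, had 3578 reads (20:29858686-29859413, plus strand). ARHGAP22 had 2852 (9:48138234-48138870, plus strand).

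The last of the 12 had between 1992 and 2724 reads. CNOT1, the scaffold of a complex that shortens poly(A) tails, had 2724 reads (20:56916188-56916746, minus strand), but its row carries 2 gene identifiers, so the host is uncertain. DDX58, the cytosolic sensor of viral RNA also called RIG-I, had 2633 (15:44749815-44750043, minus strand). NTN1, the axon guidance factor netrin-1, had 2073 (16:8968596-8968758, minus strand). ENSMMUG00000008631 had 1992 (13:18641182-18641549, plus strand).

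Each of these 12 was listed at 0 in at least 1 library. The 264-base YAF2 circRNA was listed at 0 in PC_20M, where its median share of reads would have given 1497 reads, and had 139 to 3502 reads in each of the other 31 libraries. Its 325-base partner was listed at 0 in OC_10M alone, where the median share would have given 648 reads. ANK1 was listed at 0 in CA1_10F, UBE2D4 in OC_20F, ZCWPW1 in CA1_10M and ENSMMUG00000029153 in PCC_10F, at depths where the median share would have given 52.6 to 199 reads. PDCD4 was listed at 0 in 6 libraries, NTN1 in 8 and CNOT1 in 11. A mean below includes these zeros.

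YAF2 circles formed a family around shared ends. Of the 9 YAF2 members, 6 joined the same downstream end at position 39133774 to upstream ends 264 to 325 bases away, and 3 joined different downstream ends to position 39134038. The pair of 264 and 325 bases differs by 61 bases at the upstream end, and the other 7 had between 2 and 92 reads. YAF2 had no exonic circRNA in the table, and its 10 intronic circRNAs of 1 kb or more had 1129 reads together, against 78267 for the short ones.

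In TPM, the 264-base YAF2 circRNA had a level of 2671 ± 700 TPM (SD, n = 4) in TC, 2226 ± 520 in CB and 2046 ± 795 in DG. It was 1895 ± 759 in PCC, 1705 ± 980 in CA1, 1659 ± 279 in OC, 984 ± 765 in PC and 874 ± 283 in PFC. Neighbours in this order differed by less than the larger of their SDs. The values in PFC were 742, 802, 1289 and 663 TPM and those in TC 2096, 3185, 2041 and 3363 TPM (10F, 10M, 20F and 20M), so these regions did not overlap. They did not overlap as reads per 10000 either, at 36.8 to 53.1 in PFC and 88.6 to 124 in TC.

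The 325-base form followed another order, with 1884 ± 636 TPM (SD, n = 4) in CB, 1330 ± 690 in DG, 1315 ± 216 in PC and 1175 ± 414 in TC. The lowest were PFC with 1024 ± 240, PCC with 971 ± 50.3, CA1 with 885 ± 214 and OC with 567 ± 382 TPM. In CB it was 1.81 times its mean elsewhere (exact permutation p = 0.0026, 4 against 28 libraries, limma adjusted p = 0.83).

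Because both YAF2 forms are counted in the same library, their proportion does not depend on depth or scale. The longer form made up 50.7% to 58.3% of the pair in PFC and 45.2% to 56.7% in 3 PC libraries. In TC it made up 27.0% to 32.2% and in 3 OC libraries 29.5% to 33.7%. The PFC and PC libraries with both forms (52.4% ± 4.81, SD, n = 7) did not overlap those of TC and OC (30.5% ± 2.19, SD, n = 7), although all are neocortex. This grouping follows the proportions themselves, so the separation is no test, and PCC, also neocortex, reached into both groups. CB, with 39.6% to 51.2%, lay above TC and OC and overlapped PFC and PC. PCC, CA1 and DG each spanned a wide range, from 28.6% to 52.3% in all, and in each of them the highest value came from 1 of the 5 libraries with the highest share of clean reads. Those 5 libraries had 46.3% to 52.3%, and the other 9 of PCC, CA1 and DG had 28.6% to 39.1%. The part of this library property in the proportions was not tested. The PFC and PC libraries outside the highest share of clean reads had 45.2% to 58.3% (n = 5). Most of these 5 also had a higher mapping rate in the study than any TC or OC library. Region and library properties therefore cannot be told apart in the contrast of PFC and PC with TC and OC. The proportion in PC_20M (100%) and in OC_10M (0%) follows from the form listed at 0.

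**Figure D2:**
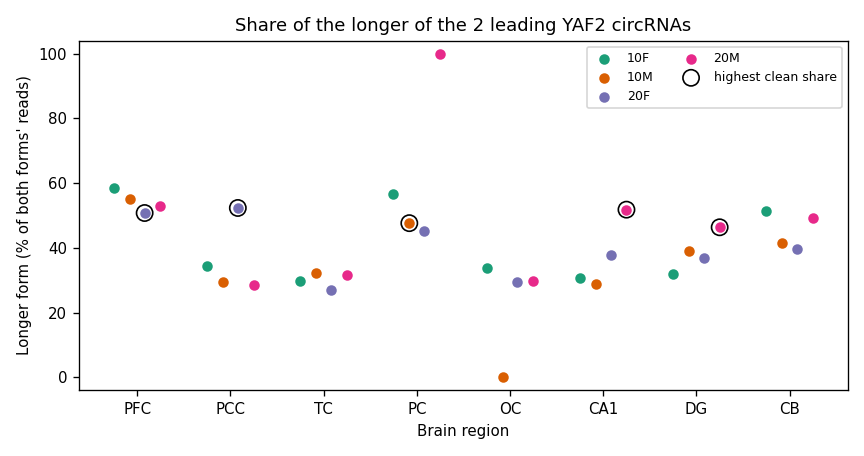
Percent of the 325-base form among reads of the 264-base and 325-base YAF2 circRNAs (vertical) in each library, by region (horizontal), coloured by pool, with circles around the 5 libraries with the highest share of clean reads. PFC lies between 50.7% and 58.3% and TC between 27.0% and 32.2%, and OC_10M (0%) and PC_20M (100%) each have 1 form listed at 0.

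Most host genes gave a single short intronic circRNA. Of the 1056 hosts, 912 (86.4%) had 1 member, and 802 also had an exonic circRNA. In 342 hosts (32.4%) the short intronic circRNAs had more reads than the exonic ones, which includes 88 of the 802. The abundant members were mostly of this kind. ANK1 had 10265 reads in its short intronic circRNA and 410 in 4 exonic ones. PDCD4 had 6696 against 80, UBE2D4 7880 against 12, ARHGAP22 2852 against 74 and DDX58 2633 against 92. ZCWPW1 had 4597 and no exonic circRNA, and NTN1 (2079 reads in 2 members) and KIAA0182 (596 reads) had no other circRNA at all. GLT1D1 was the reverse, with 442 reads in its member and 1975 in 13 exonic circRNAs.

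After YAF2, the hosts with most members had few reads in them. THRB, the thyroid hormone receptor beta, had 5 members with 116 reads against 7609 in exonic circRNAs, and 1 of the 5 lay on the opposite strand to the rest. ANKRD6 and WBSCR17 also had 5 members, with 113 and 46 reads. ENSMMUG00000017921 had 5 members with 38 reads, again on both strands. NRXN3, a presynaptic adhesion molecule, had 4 members with 145 reads, KCNC2, a voltage-gated potassium channel, 4 with 83 reads, and HS6ST3, a heparan sulfate sulfotransferase, 4 with 44 reads.

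Some members reused the splice ends of other circles. Of the 1240, 467 (37.7%) shared an end with another circRNA of the table, against 76.3% of intronic circRNAs of 1 kb or more and 75.1% of exonic ones. An end of an exonic circRNA was used by 275 members (22.2%), as the upstream acceptor in 163 and the downstream donor in 112, and by 56.2% of the long intronic class. No member shared both ends with exonic circRNAs. The share with any shared end was 30.6% among members of 2 to 4 reads and 72.0% among the 93 with at least 100 reads. Among themselves, 87 members formed 41 families around a common end, 22 around an acceptor and 19 around a donor, and 36 of the families were pairs. One form led most families of abundant hosts, such as the 524-base form of UBE2D4 (99.9% of the reads of its pair), the 303-base form of PDCD4 (99.5%) and the 399-base form of MCF2 (93.8%). The YAF2 donor family was more even, with 57.3% in its leading member.

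Short intronic circRNAs took a larger share of the back-splice reads in CB than elsewhere. In CB they held 3.60% to 4.14% of the reads of a library (mean 3.86% ± 0.248, SD, n = 4), and in the other 28 libraries 1.57% to 3.37% (2.44% ± 0.460, SD), the highest being DG_20M. All 4 CB libraries lay above all others with the limit of 1000 bases. With a limit of 500 bases the groups overlapped, at 1.92% to 2.41% in CB and 0.995% to 2.63% elsewhere, where 10 of the 28 libraries exceeded the lowest of CB. The share of exonic circRNAs under 1 kb was also highest in CB, at 18.5% ± 0.537 (SD, n = 4) against 15.3% ± 1.67 (SD, n = 28), with 1 library elsewhere above the lowest of CB, and that of intronic circRNAs of 1 kb or more was 4.94% ± 0.161 against 4.78% ± 0.473. Region means elsewhere were 2.86% in TC, 2.81% in DG, 2.66% in OC, 2.34% in PCC, 2.29% in CA1 and 2.08% in both PFC and PC. As a sum over chosen circRNAs, this share is given without a test. In bulk tissue, fewer cells of a type and less RNA per cell cannot be told apart.

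A few circles made up the difference of CB. ANK1 alone held 0.731% to 1.45% of the reads in CB and 0% to 0.256% elsewhere. PDCD4 held 0.267% to 0.387% against 0% to 0.243%, and YAF2 1.33% to 1.76% against 0.609% to 1.95%. Without YAF2 they held 2.08% to 2.58% in CB and 0.947% to 1.51% elsewhere, with no overlap. Without ANK1 the members held 2.48% to 3.15% in CB and 1.55% to 3.25% elsewhere, and the groups overlapped. Without YAF2, ANK1 and PDCD4 the remaining members held 0.941% ± 0.106 in CB (SD, n = 4) against 1.02% ± 0.127 elsewhere (n = 28).

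**Figure D3:**
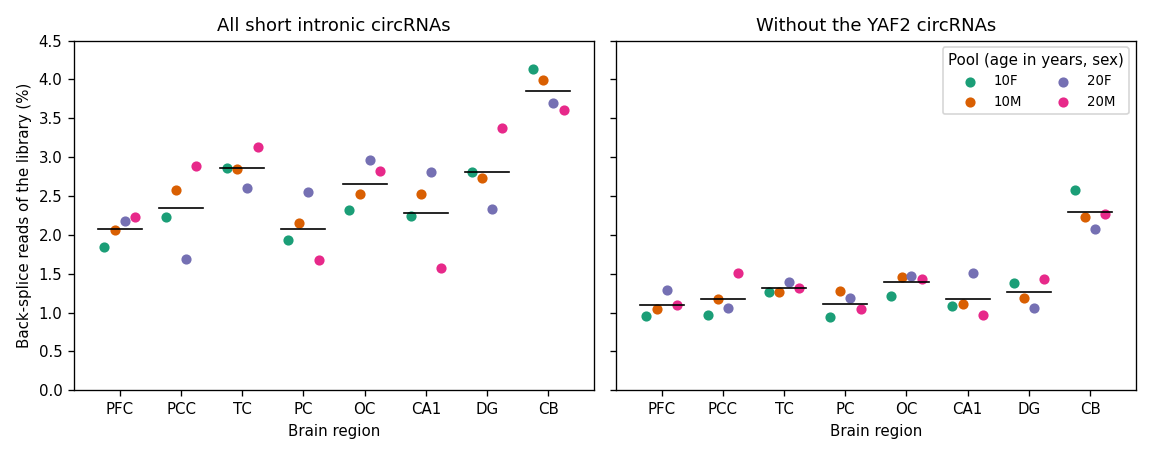
Percent of a library's back-splice reads in short intronic circRNAs (vertical) by region (horizontal), for all of them (left) and without the YAF2 circRNAs (right), 1 point per library, coloured by pool, with a line at each region's mean. The 4 CB libraries lie above the other 28 on the left (3.60% to 4.14% against 1.57% to 3.37%) and on the right (2.08% to 2.58% against 0.947% to 1.51%).

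The number of different members did not follow this order. OC had 414 members, 201 of them found in no other region, PFC 331 (153), PC 327 (150), CB 289 (113), PCC 217 (74), CA1 211 (82), TC 201 (69) and DG 173 (58). Between 11 members (CA1 and DG) and 22 (OC) were found in all 4 libraries of a region. The number found also depends on depth, which ranged from 422371 reads in the 4 DG libraries to 1300778 in those of PC. Members were on average 1.44% (TC) to 1.69% (OC) of the circRNAs found in a library. The share of all circRNAs confined to a region was not computed. The counts of members found in no other region therefore cannot be set against it.

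Region differences were tested for the 274 members that passed the filter, within a fit over all 17050 circRNAs that did. By limma, with an adjusted p under 0.05, 11 members (4.01%) were higher in CB than the mean of the other regions, against 2.00% of all circRNAs tested, and 3 (1.09%) were lower, against 0.727%. The median log2 difference of CB was -0.13 over the members and -0.14 over all. All 4 CB libraries lay above the other 28 for 2 members (0.730%), ANK1 and CECR2, against 0.311% of all circRNAs. Of the 11 higher members, 3 had higher values in CB in each of the 4 pools and 8 had them in 3 pools. Without 1 pool the number was 13 (10F), 4 (10M), 4 (20F) or 4 (20M). ANK1, CECR2 and GRM4 passed without any 1 pool. MYOT did not pass without 10F (limma adjusted p = 0.19) or 20M (0.17), and each of the other 7 did not pass without 10M or without 20F (0.063 to 0.51). CECR2, GRM4, SHROOM2, CACNB4 and the 348-base PDCD4 circRNA had passed the filter only through their CB libraries. In these, the filter had already selected for the difference that was tested.

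The ANK1 circRNA had 5092, 2227, 1401 and 2836 TPM in CB (10F, 10M, 20F and 20M). In the other 28 libraries it had 0 to 458 TPM with a median of 171. No library elsewhere reached the lowest of CB. The log2 difference was 4.22 (SE 0.59, limma adjusted p = 3.7e-05), and the exact permutation p of 2.8e-05 is the smallest that 4 against 28 libraries can give. As reads per 10000, it had 73.1 to 145 in CB and 0 to 25.6 elsewhere, a ratio of means of 11.6 where TPM gave 15.0. The other 4 circRNAs of ANK1 summed to 46.5 ± 32.9 TPM in CB (SD, n = 4) against 9.03 ± 14.5 in the 28 libraries elsewhere, and these values overlapped. Outside CB the ANK1 circRNA was highest in OC, at 323 to 458 TPM, and lowest in CA1, at 0 to 135 TPM. Its difference in CA1 from the mean of the other regions was -2.95 on the log2 scale (SE 0.59, limma adjusted p = 0.040), with CA1_10F listed at 0, but this call did not pass without any 1 of the pools (limma adjusted p = 0.073 to 0.42).

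CECR2, a bromodomain protein of chromatin remodelling complexes, had 131, 40.6, 45.6 and 15.4 TPM in CB. It was found in 3 of the other 28 libraries, with at most 8.78 TPM. The groups did not overlap, and the log2 difference was 4.10 (SE 0.37, limma adjusted p = 1.8e-08, exact permutation p = 2.8e-05). Since this circRNA passed the filter only through CB, these p-values are no support for the difference. Per 10000 reads it had 0.608 to 3.72 in CB and 0 to 0.366 elsewhere, a ratio of means of 80.2 where TPM gave 107, and the value in CB_10F rested on 7 reads. The 12 other CECR2 circRNAs had 118 ± 73.8 TPM in CB and 27.2 ± 37.3 elsewhere.

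GRM4, a metabotropic glutamate receptor that is abundant on the parallel fibres of cerebellar granule cells, had 56.2, 57.1, 0 and 59.4 TPM in CB. It was found in 2 libraries elsewhere, with at most 7.01 TPM. Of the 4 CB libraries, CB_20F was the one that overlapped the others. The log2 difference was 3.33 (SE 0.48, limma adjusted p = 6.5e-05). Since this circRNA too passed the filter only through CB, the p-value is no support for the difference. Per 10000 reads it had 0 to 2.34 in CB and 0 to 0.360 elsewhere, a ratio of 65.1 where TPM gave 98.97, with 3 reads in CB_10F. The other circRNAs of GRM4 were also higher in CB, with 81.3 ± 30.1 TPM (SD, n = 4) against 2.97, and their values in CB did not overlap those elsewhere.

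The other 8 members called higher in CB had smaller log2 differences. Their ratios of means as reads per 10000 were 5.09 (MYOT) to 21.6 (the 348-base PDCD4 circRNA), where TPM gave 6.42 (PIKFYVE) to 24.8 (SHROOM2). The 348-base circRNA of PDCD4 had 12.7 ± 8.95 TPM (SD, n = 4) in CB and was found in 1 other library (log2 difference 2.12, limma adjusted p = 0.0040). SHROOM2, an actin-binding protein, had 17.8 ± 22.5 TPM against 0.716 ± 2.07 (log2 difference 2.06, limma adjusted p = 0.0038). MYOT, which encodes the sarcomere protein myotilin, had 56.2 TPM in CB_10F, from 3 reads, and 10.9 to 17.6 in the other CB libraries (log2 difference 2.44, limma adjusted p = 0.0090). ENSMMUG00000030769, PIKFYVE, a phosphoinositide kinase of endosomes, DENND5B, IWS1 and CACNB4, a subunit of voltage-gated calcium channels, had log2 differences of 1.22 to 3.16 and limma adjusted p of 0.013 to 0.047. Each of these 5 was listed at 0 in 1 CB library. Per 10000 reads, the highest value lay outside CB for CACNB4 (0.888, against at most 0.608 in CB) and ENSMMUG00000030769 (1.77 against 1.64). With every library scaled to the same total, CACNB4, DENND5B and IWS1 did not pass (limma adjusted p = 0.11, 0.057 and 0.060). SHROOM2, CACNB4 and the 348-base PDCD4 circRNA passed the filter only through CB, so their p-values are no support for the difference.

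The main circRNA of PDCD4, of 303 bases, was not among them. It had 1067, 801, 728 and 655 TPM in CB and 0 to 662 TPM elsewhere with a median of 176, so that 1 library elsewhere exceeded the lowest of CB. Its mean in CB was 3.70 times that elsewhere (exact permutation p = 5.6e-05). By limma the log2 difference was 3.25 with an SE of 1.22 (adjusted p = 0.21), the circRNA being listed at 0 in 6 libraries. As reads per 10000, all 4 CB libraries (25.9 to 38.0) lay above the other 28 (0 to 24.3). By the exact permutation test at p under 0.01 without adjustment, 14 members (5.11%) were higher in CB, against 3.20% of all circRNAs. Beside the 10 that limma also called higher and PDCD4, these were ZCWPW1, with 285 ± 76.7 TPM (SD, n = 4) against 144 ± 75.6 (SD, n = 28), the 325-base YAF2 circRNA, and PTPRA, a receptor tyrosine phosphatase, with 19.9 ± 25.2 against 2.05 ± 5.30 TPM.

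Among the 3 members lower in CB, RIMBP2 and PKP4 were listed at 0 in all 4 CB libraries. RIMBP2, which links calcium channels to the presynaptic release site, had 0 to 205 TPM elsewhere with a median of 39.5 and was found in 25 of 28 libraries, with its highest means in DG (96.8 TPM) and PCC (86.4 TPM). PKP4, a protein of cell junctions, had 0 to 155 TPM elsewhere with a median of 22.5 and was found in 23. Their fitted log2 differences of -3.83 and -2.99 (limma adjusted p = 0.0043 and 0.029) depend on the pseudocount. The table lists no value under 2 reads, so no fold is given. ARHGAP22 had 37.4, 9.02, 0 and 8.79 TPM in CB and 0 to 276 TPM elsewhere with a median of 78.9. Its log2 difference was -2.62 (SE 0.72, limma adjusted p = 0.044), which did not pass without the 10M pool (0.48), the 20F pool (0.46) or the 20M pool (0.13). PKP4 did not pass without any 1 of the 4 pools (0.10 to 0.25), nor RIMBP2 without the 10F pool (0.055) or the 20M pool (0.13).

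**Figure D4:**
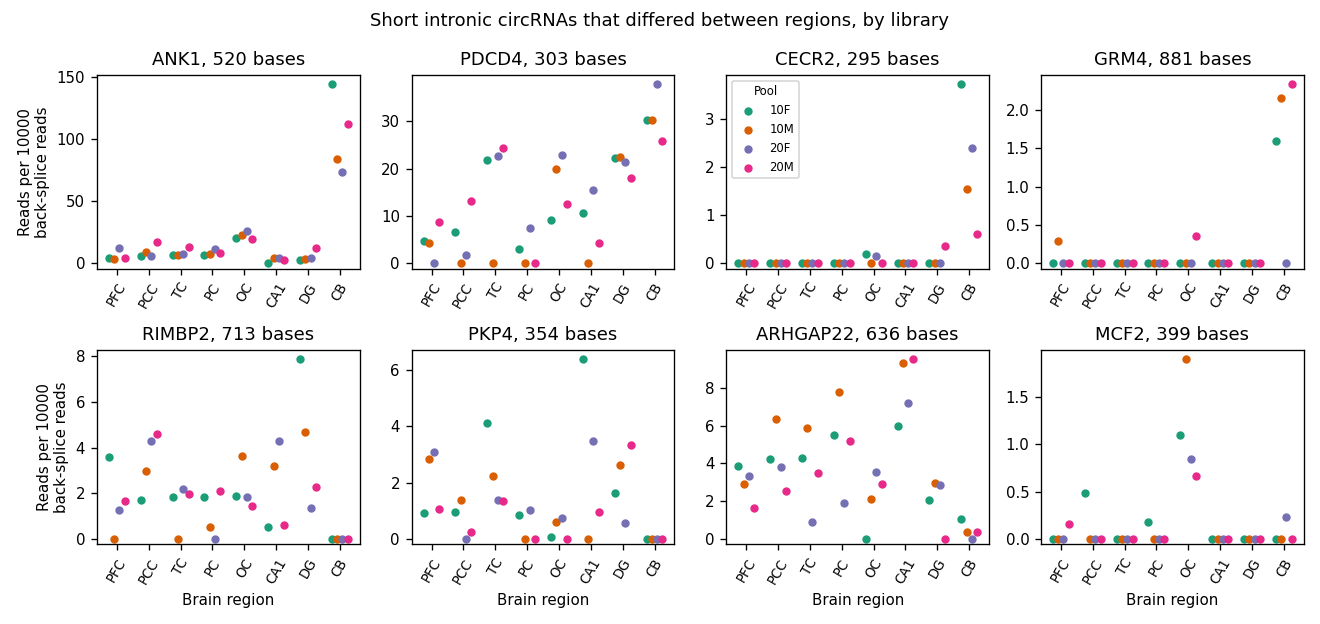
Back-splice reads per 10000 of a library (vertical, 1 panel per circRNA named with its length in bases) by region, 1 point per library, coloured by pool. ANK1 at 73.1 to 145 in CB against at most 25.6 elsewhere and PDCD4 at 25.9 to 38.0 against at most 24.3 stand apart, while RIMBP2 and PKP4 are listed at 0 in CB.

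Outside CB, limma called 2 members higher in a region (0.730%, against 1.09% of all circRNAs), MCF2 in OC and PIKFYVE in PCC. MCF2 had 20.1, 26.9, 15.2 and 12.95 TPM in OC. It was found in 4 of the other 28 libraries, with at most 11.3 TPM, below the lowest of OC. The log2 difference was 2.85 (SE 0.35, limma adjusted p = 2.0e-04, exact permutation p = 2.8e-05). It had 122 reads in all, and its only exonic circRNA had 2 reads. MCF2 passed the filter only through its OC libraries, so the filter had already selected for this difference. PIKFYVE had 23.9, 32.4, 11.3 and 23.0 TPM in PCC, and its mean in CB, 28.8 ± 30.5 TPM, was as high. For PIKFYVE in PCC the log2 difference was 2.55 (limma adjusted p = 0.029), and it did not pass when any 1 pool was left out (0.090 to 0.18).

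By the exact permutation test at p under 0.01 without adjustment, 12 members (4.38%) were higher in a region other than CB, against 5.30% of all circRNAs. ARHGAP22, lower in CB, had its highest level in CA1, with 146, 276, 113 and 223 TPM, 2.81 times its mean elsewhere (exact permutation p = 0.0011, limma adjusted p = 0.47). KIAA0182 had 68.9 ± 45.8 TPM (SD, n = 4) in DG against 14.7 ± 12.9 (SD, n = 28), with DG_20F at 14.4 TPM inside the range of the other regions. UBE2D4 had 475 ± 307 TPM in TC against 234 ± 94.7, a mean raised by TC_10M at 931 TPM. SGPP2 had 52.3 ± 15.3 TPM in TC against 20.7 ± 17.8, and RB1CC1, an autophagy protein, 57.7 ± 34.8 in PC against 13.4 ± 17.0. The others were CAMSAP1L1 in TC, TAOK2 in PC, SNTG1 in OC beside MCF2, PSD3 and ARID1B in CA1 and C4H6ORF57 in PCC, with means of 6.12 to 23.4 TPM in these regions. Like MCF2, SNTG1 passed the filter only through its OC libraries. PFC had no such member, and limma at an unadjusted p under 0.05 gave 33 of the 274 members higher there and 1248 of the 17050 circRNAs (7.32%).

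GLT1D1, a glycosyltransferase whose primers are printed above, was found in 19 libraries. It had 54.8, 44.2, 11.3 and 72.2 TPM in PCC, 28.3, 113, 0 and 65.2 TPM in TC, and was listed at 0 in all 4 DG libraries. In the other regions its means were 5.04 to 17.0 TPM.

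Neuronal genes were among the hosts, mostly with few reads. Of 43 genes of glutamate receptors and the postsynaptic scaffold, 13 hosted 16 members with 219 reads, led by GRM4 with 90. Of 54 presynaptic genes, 10 hosted 13 members with 1764 reads, of which RIMBP2 had 1290. Of 97 genes of synaptic adhesion and axon guidance, 15 hosted 22 members with 2382 reads, of which NTN1 had 2073. Of 40 genes of ankyrins, spectrins and the cytoskeleton, 12 hosted 15 members with 10490 reads, nearly all of them of ANK1. Of 100 kinases and phosphatases of neuronal signalling, 21 hosted 25 members with 464 reads, led by DGKG with 78, all in 1 library.

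Ion channels and RNA-binding proteins held fewer. Of 58 sodium, potassium and HCN channel genes, 9 hosted 13 members with 212 reads, led by KCNC2. Of 32 calcium channel genes 3 hosted 4 members, led by CACNA1B with 39 reads. RNA-binding proteins gave 9 members from 7 of 65 genes, led by STAU2 with 26 reads. Of 30 cerebellar cell markers, 5 hosted 6 members, led by GRM4. Markers of oligodendrocytes (25 genes) and of microglia (18 genes) hosted none, those of astrocytes 2 (SLC1A2) and those of endothelial and mural cells 1 (ATP10A). The oligodendrocyte and microglia markers had only 20 and 10 circRNAs of any type, from 10 and 4 genes. Members were 2.35% of all circRNAs, so these lists are too small to show a lack of members.

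In these lists, the members that passed the filter were few, from 0 to 6 per list. Those called were GRM4, ANK1 and CACNB4, higher in CB, RIMBP2, lower in CB, and PPFIA1, higher at 20 years by the unadjusted test. In each of them the short intronic circRNAs were at most 6.67% of the circRNAs of the listed genes, a share reached by the sodium, potassium and HCN channels, against 2.35% over all circRNAs.

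Between 10 and 20 years the short intronic circRNAs as a class held 2.61% ± 0.650 of the reads (SD, n = 16) at 10 years and 2.63% ± 0.659 (SD, n = 16) at 20 years. At 10 years 703 members were found and at 20 years 803, from 2632680 and 4526599 back-splice reads, and 266 were found at both ages. Members were on average 1.53% of the circRNAs found in a library at 10 years and 1.62% at 20 years. Of the 274 that passed the filter, 166 (60.6%) had a higher mean at 20 years, against 55.2% of all circRNAs, and the median log2 difference was 0.15 against 0.08. In both sexes 57 rose in mean and 51 fell in mean, so 108 of the 274 had the same direction in both. For this count the share over all circRNAs was not computed.

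By the two-sided unpaired test with equal variances at p under 0.05 without adjustment, 2 members (0.730%) were higher at 20 years, against 1.52% of all circRNAs, and 1 (0.365%) was higher at 10 years, against 1.45%. Of these, only DDX58 would pass the filter on the libraries of either age alone. By limma with region and sex as covariates 0 members passed an adjusted p under 0.05 (0.00%, against 0.0293% of all circRNAs), the smallest being 0.81, and 16 members (5.84%) had an unadjusted p under 0.05, against 5.26% of all circRNAs. With voom on the recovered reads the count was also 0. For the interaction of age with sex, 0 members passed in limma, against 0.0469% of all circRNAs, and the smallest adjusted p was 0.18.

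DDX58 was the most abundant of the 3. It had 0 to 123 TPM with a mean of 58.3 ± 42.2 (SD, n = 16) at 10 years, and 22.6 to 135 TPM with a mean of 90.6 ± 29.8 (SD, n = 16) at 20 years. The ages overlapped widely. The ratio was 1.55 (p = 0.018 by the unpaired test, permutation p = 0.020, limma adjusted p = 0.81). Means were 63.4 (10F) and 53.1 TPM (10M) against 93.3 (20F) and 87.8 TPM (20M), and the value was higher at 20 years in 12 of 16 pairs of libraries of the same region and sex. It was listed at 0 in 3 libraries, all of 10 years (PFC_10M, CB_10F and CB_10M), and the p was 0.064 to 0.085 without the 10M, the 20F or the 20M pool and 0.064 without the 5 libraries with the highest share of clean reads.

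PPFIA1, a presynaptic scaffold protein, was found in 4 libraries, OC and CB of both 20-year pools, with 4.32 to 10.9 TPM, and was listed at 0 in all 16 libraries of 10 years (p = 0.045 by the unpaired test, permutation p = 0.10). CFAP61, a protein of cilia, was found in 5 libraries of 10 years and 1 of 20 years, with means of 4.62 ± 8.42 and 0.180 ± 0.720 TPM (SD, n = 16; permutation p = 0.043). Its 10-year values above 0 were 6.03 to 28.6 TPM. Without the 10M, the 20F or the 20M pool its p was 0.056 to 0.17, and PPFIA1 had a p of 0.16 without the 10F or the 10M pool. Both circRNAs passed the filter only through the age at which they were higher, so these p-values are no support for an age difference.

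In each of the other abundant members the means of the 2 ages differed by less than the smaller of their SDs. The 264-base YAF2 circRNA had 1941 ± 784 TPM (SD, n = 16) at 10 years and 1574 ± 853 at 20 years (permutation p = 0.21), and the 325-base one 1169 ± 586 and 1119 ± 455 (permutation p = 0.79). ANK1 had 589 ± 1311 and 472 ± 708 TPM (permutation p = 0.79), with the CB libraries highest at both ages. UBE2D4 had 303 ± 182 and 225 ± 110 TPM, ARHGAP22 98.7 ± 75.5 and 66.7 ± 58.3, and CNOT1 120 ± 147 and 73.7 ± 83.2, with permutation p of 0.14, 0.19 and 0.29. ZCWPW1 had 147 ± 97.7 and 176 ± 78.1 TPM and NTN1 65.0 ± 72.1 and 98.3 ± 90.9, with permutation p of 0.35 and 0.26. The 303-base PDCD4 circRNA had 281 ± 319 and 307 ± 241 TPM (permutation p = 0.80), and ENSMMUG00000029153 had 116 ± 64.5 and 101 ± 41.2 (permutation p = 0.44). ENSMMUG00000008631 had 42.1 ± 61.6 and 56.2 ± 44.2 TPM (permutation p = 0.49) and was higher at 20 years in 12 of 16 pairs. Its means by pool were 14.5 (10F), 69.6 (10M), 65.3 (20F) and 47.0 TPM (20M). For each of these, the limma adjusted p over all circRNAs was 0.81 or higher.

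**Figure D5:**
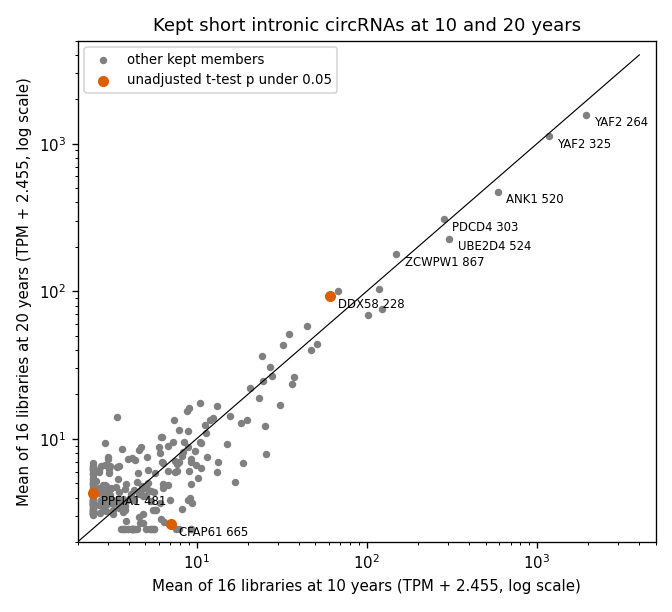
Mean TPM at 10 years (horizontal) and at 20 years (vertical) of the 274 short intronic circRNAs that passed the filter, both on log axes after adding the pseudocount of 2.455 TPM, with the line of equal means. DDX58 (58.3 and 90.6 TPM) lies above the line and CFAP61 (4.62 and 0.180 TPM) below it, and the abundant YAF2 and ANK1 circRNAs lie near it.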

How the data were processed

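CircRNAs of 32 libraries were analysed from 1 table. Per the study's methods, the authors trimmed reads with Cutadapt, mapped them with BWA and called circRNAs with CIRI2 from at least 2 head-to-tail reads. The genome build is not given in the sources used here. The deposited values are in TPM, per the file headers, while the methods name DESeq normalisation, and they do not sum to 1 total. Reads were recovered by dividing each value by the worth of 1 read in its library (tolerance 0.1 read). Libraries held 18813 to 894932 back-splice reads, and intervals were not drawn, since amplified copies cannot be told from molecules.

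Members were rows of type intron with end minus start under 1000 bases. The members and host gene lists were chosen with earlier results of these data known. The filter kept circRNAs with at least 3 reads in 2 libraries of 2 regions, or of 1 region and in 6 libraries, or at least 30 reads in total. Regions were compared by limma on log2(TPM + 2.455), each region against the mean of the other 7 with age and sex as covariates and Benjamini-Hochberg adjustment over all kept circRNAs, and by an exact two-sided permutation test of means. Ages were compared by the unpaired test with equal variances of the methods, by limma with region and sex, and by permutation (100000 draws). A shared end was a same-strand start or end position equal to that of another circRNA.

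Named members are the 12 with most reads, those with primers, those called for a region or age in the same direction in each pool, with the 6 smallest p per direction for CB and age and 2 elsewhere, all members of the 8 hosts with most members, the shortest and longest, and the leader of each list. Other called members, and KIAA0182 as a host, were named after their values were seen. Pools pair libraries across regions, because they hold the same animals. The deviations of libraries of a pool correlated weakly (mean 0.0251, against -0.00835 between pools, and 0 of 112 pairs over 0.1). The fits were run on simulated data with independent libraries, where the changed circRNAs were not drawn from those with few reads. Members with few reads are therefore not covered by it. Results for some host genes are not reported here. Alternatives were other pseudocounts, filters, scalings, tests and length limits and leaving out pools or libraries. edgeR was not run, because the deposited unit is not counts. Python 3.11.15 with NumPy 2.4.6, SciPy 1.17.1 and pandas 2.3.3 and R 4.3.3 with limma 3.58.1 were used.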

Additional observations from a re-analysis of the deposited data

Results flagged for a closer look

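Of 138 groups of 4 or 8 libraries, 15 (10.9%) had 1 library far from the others by Dixon's criterion, where chance flags about 1 in 20, and no cause was tested. Within a pool, the share of back-splice reads in short intronic circRNAs was highest in CB for the 10F pool (4.14%, against 1.84% to 2.86% in the other regions) and for the 10M pool (3.99%, against 2.06% to 2.84%).

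A low library stood apart in 5 cases. The proportion of the longer YAF2 form was 0% in OC_10M against 29.5% to 33.7% in the other OC libraries, since the 325-base YAF2 circRNA was listed at 0 TPM there and at 679 to 796 TPM in the others. UBE2D4 was listed at 0 TPM in OC_20F against 137 to 159 TPM, and GRM4 at 0 TPM in CB_20F against 56.2 to 59.4 TPM. The 264-base YAF2 circRNA had 862 TPM in DG_20F against 2309 to 2509 TPM, in a library where a read was worth 2.05 TPM. As reads per 10000 it had 80.1 there (420 reads) and 94.8 to 104.4 in the other DG libraries.

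A high library stood apart in 8 cases. ANK1 had 357 TPM in PFC_20F against 55.9 to 81.9 TPM and 291 TPM in DG_20M against 41.1 to 77.3 TPM, both in libraries with a high share of clean reads. UBE2D4 had 931 TPM in TC_10M against 268 to 379 TPM, MYOT 56.2 TPM in CB_10F against 10.9 to 17.6 TPM, and ENSMMUG00000029153 105 TPM in OC_20M against 75.7 to 80.7 TPM. CNOT1 was found in PC_10M alone of its region (91.1 TPM) and in CB_10F alone of CB (543 TPM), and ENSMMUG00000008631 had 256 TPM in PC_10M against 27.9 to 28.3 TPM.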

How the results depend on the processing

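With a limit of 500 or 2000 bases the members were 742 or 1925, and held 2.18% or 4.46% of reads in CB and 1.76% or 2.997% elsewhere (over all libraries 1.81% with 500 bases), and with 500 bases CB overlapped the other libraries. Without 1 pool each, the shares were 2.60% to 2.65% over all libraries, 3.76% to 3.94% in CB and 2.42% to 2.49% elsewhere. Over circRNAs above 0 in at least 16 libraries, limma called 1 member higher in CB and 0 higher in another region, the exact test 4 and 5, and the unpaired age test 1 higher at 20 and 0 at 10 years, fewer circRNAs being tested. Lower in CB was 1 member over all circRNAs of the table and 1 with voom. Higher in another region was 1 over all circRNAs, 1 with equal totals, 1 with size factors, 5 without the 5 libraries with the highest share of clean reads and 0 with voom. For age, higher at 20 years were 6 without those 5, 1 by Welch's test and 6 on log2 values. Higher at 10 years were 3 with equal totals, 2 with size factors, 0 by Welch's test, 5 on log2 values and 4 with libraries paired by region and sex (replicate block), where 3 were higher at 20 years. Without 1 pool each, limma called 4 to 13 higher and 0 to 1 lower in CB, 1 to 4 higher elsewhere and 0 to 0 for age, the exact test 5 to 11 and 4 to 10, and the age test 1 to 10 and 0 to 8. The cause was not tested.

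With the pool as replicate block, limma called 11, 3 and 2 members, as without it, and with a correlation within pools estimated the same numbers. ANK1, CECR2 and GRM4 in CB passed under every alternative run, MCF2 in OC under all but voom (adjusted p = 0.15), and no named result changed direction. For CB, MYOT, SHROOM2 and the 348-base PDCD4 circRNA passed under 9 of 12 alternatives, RIMBP2 under 11 of 13, and DENND5B and IWS1 under 3 of 12. CECR2, GRM4, SHROOM2 and the 348-base PDCD4 circRNA passed the filter only through CB, and MCF2 only through OC. For them, alternatives on the kept circRNAs repeat a comparison that the filter had selected for. Voom and, for regions, the correlation were chosen after seeing the data, and edgeR was not run. Depth limits members with few reads, since no value under 2 reads is listed.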
